A study of Mus musculus with 6 samples.

Results

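Glycolysis turns glucose into pyruvate in the cytosol and yields ATP without oxygen. Glucose enters the cell through carriers of the SLC2A (GLUT) family, is trapped by hexokinase, is committed to breakdown by phosphofructokinase, and is split by aldolase. Gapdh, Pgk1 and Pkm act in its lower steps, and lactate dehydrogenase reduces pyruvate to lactate. Pyruvate dehydrogenase kinase switches off pyruvate dehydrogenase and so limits the oxidation of pyruvate in the mitochondria. Stromal cells of the bone marrow rely strongly on glycolysis while they are undifferentiated, and many genes of glycolysis are targets of the hypoxia-inducible factors (HIF). Tet1 and Tet2 are enzymes that oxidise 5-methylcytosine, a step in the removal of DNA methylation.

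The set comprised 10 genes of this route, chosen by symbol: the carrier Slc2a1, the hexokinases Hk1 and Hk2, the phosphofructokinase Pfkp, the aldolase Aldoa, Gapdh, Pgk1, Pkm, Ldha and the kinase Pdk1. All 10 were found among the 36870 symbols of the deposited table, and each had 1 row that passed the minimum for testing. They were compared between 3 Control libraries and 3 siTet1/Tet2 libraries of BMMSCs, the adherent cells grown from the marrow of C57BL/6 mice. Cells of both groups were at passage 2 by the labels, whereas the methods give an earlier passage. The siTet1/Tet2 cells had received siRNAs against Tet1 and Tet2 together, and the Control cells a non-targeting siRNA by the labels, although the sequencing methods call them vehicle-treated. The age of the mice and the number of mice or cultures behind the libraries were not given, so p-values measure the spread between these libraries, which may be technical. Levels are given in RPKM, reads per kilobase of gene and per unit of mapped reads.

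The knockdown was checked first. In Control, Tet2 stood at 2.57, 4.08 and 3.71 RPKM, and after the siRNAs at 0.358, 0.238 and 0.202 RPKM. Its log2 fold change was -1.80 (SE 0.13, limma adjusted p = 2.9e-05). Tet1 was at 0.032, 0.098 and 0.050 RPKM against 0.001, 0.010 and 0.001 RPKM, below the minimum for testing, where 0.001 is the lowest value the table lists. Tet3, which was not targeted, was at 7.03 ± 1.55 against 7.66 ± 0.767 RPKM (SD, n = 3; limma adjusted p = 0.51). The table gave no read totals, and low values placed the depth at an estimated 32400000 to 37600000 reads in Control and 35600000 to 38700000 in siTet1/Tet2. That estimate put at least 2010 reads on Gapdh and 2334 on Pdk1 in every library. The libraries also differed in markers that do not belong to the pathway. The 15 macrophage markers summed to between 9026 and 11926 RPKM in Control and between 17540 and 20598 RPKM in siTet1/Tet2. Of these, 7 were higher and 2 lower, 6 did not pass the test, and none was near 0 in either group. Much of the rise in the sum lay in Lyz2, named after its values were seen. Its means were 4439 RPKM in Control and 11321 RPKM in siTet1/Tet2. The 15 stromal markers summed to between 1151 and 1659 RPKM in Control and between 203 and 348 RPKM in siTet1/Tet2. Of the 13 tested, 10 were lower and 1 higher. Over all genes tested, 29.8% were lower and 14.7% higher. Lepr and Thy1 were not tested, with Lepr under 0.1 RPKM in every library and Thy1 at 0.146 RPKM or less. Of the 14 markers of other blood and endothelial cells, 9 were under 0.1 RPKM in every library. The 10 most abundant rows held 10.6% to 11.8% of the summed RPKM in Control and 17.8% to 20.1% in siTet1/Tet2. In bulk RNA, fewer cells of a type and less RNA per cell cannot be told apart, and the part of these differences in the results on glycolysis was not tested.

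HIF binds a short core, ACGTG or GCGTG, which holds a CpG, the dinucleotide at which most DNA methylation lies. The 250 bases before the start that RefSeq gives for each gene (GRCm38.p6) were read for this core on both strands, with a CACGTG palindrome counted once per strand. The windows of 4 members are shown, those of Pfkp, Gapdh, Pgk1 and Ldha. These set Pfkp, which fell the most by a small margin over Hk1, beside members that did not pass the test. They run 5′ to 3′ on the strand of the gene and end at the base before its start, with the core in capitals.
Pfkp, chr13:6648772-6649021, minus strand: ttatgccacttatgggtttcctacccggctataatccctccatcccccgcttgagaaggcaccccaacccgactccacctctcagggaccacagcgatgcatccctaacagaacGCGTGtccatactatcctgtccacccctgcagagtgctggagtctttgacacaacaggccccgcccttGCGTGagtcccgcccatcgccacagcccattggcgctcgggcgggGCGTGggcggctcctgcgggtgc
Gapdh, chr6:125165774-125166023, minus strand: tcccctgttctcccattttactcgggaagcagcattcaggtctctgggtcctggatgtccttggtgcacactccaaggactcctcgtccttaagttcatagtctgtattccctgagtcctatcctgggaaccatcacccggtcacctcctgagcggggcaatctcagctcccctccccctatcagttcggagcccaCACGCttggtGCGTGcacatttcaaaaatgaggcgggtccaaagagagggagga
Pgk1, chrX:106186850-106187099, plus strand: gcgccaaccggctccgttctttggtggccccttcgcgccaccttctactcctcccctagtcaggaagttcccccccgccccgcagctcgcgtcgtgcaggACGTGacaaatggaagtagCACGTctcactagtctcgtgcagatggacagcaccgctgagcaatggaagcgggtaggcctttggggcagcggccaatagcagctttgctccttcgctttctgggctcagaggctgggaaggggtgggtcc
Ldha, chr7:46845554-46845803, plus strand: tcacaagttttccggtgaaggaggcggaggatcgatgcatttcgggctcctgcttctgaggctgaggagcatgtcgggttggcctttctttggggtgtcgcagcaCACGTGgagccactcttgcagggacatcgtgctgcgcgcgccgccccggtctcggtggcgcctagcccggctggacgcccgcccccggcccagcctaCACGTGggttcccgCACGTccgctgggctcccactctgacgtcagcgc
The core occurred 3 times before Pfkp, 2 times before Gapdh, 2 times before Pgk1 and 5 times before Ldha. It also occurred 2 times before Slc2a1, 2 times before Hk2 and once before Pdk1, and these letters were not in the windows of Hk1, Aldoa and Pkm. In all, 7 of 10 members held the core, against 38.6% of 27025 mouse promoters of this length and 56.2% of the 9882 that belong to genes tested here. Of the 4 members that fell in siTet1/Tet2 cells, Slc2a1, Hk2 and Pfkp held it and Hk1 did not. Of the 6 that did not pass the test, Gapdh, Pgk1, Ldha and Pdk1 held it. The windows had a median of 16.5 CpG sites, close to the median of 16 for genes tested. The windows of Hk1 and Aldoa held 1 and 0 CpG sites. Those of Aldoa, Gapdh and Ldha lie inside the spans given below for these genes, and other starts of the members were not searched. These matches describe the sequence and are not binding sites.

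Glycolysis genes did not move as a block. Of the 10 members, 4 were lower in siTet1/Tet2 cells at an adjusted p under 0.05 (limma on log2(RPKM + 1), Benjamini-Hochberg over all 13266 genes tested), none was higher, and 6 did not pass. Across all genes tested, 29.8% were lower and 14.7% were higher, or 44.5% in either direction, so a count of 4 in 10 lay near the background. The median log2 fold change was -0.15 over the members and -0.09 over all genes. At a fold change over 2 with p under 0.05 before adjustment there were 0 members, against 6.58% of all genes, and 4 members had such a p alone. The groups did not overlap in 5 members that were lower and 1 that was higher, against 35.9% and 19.8% of all genes, or 55.7% in either direction. The 4 that fell were Slc2a1, Hk1, Hk2 and Pfkp, the carrier and enzymes of steps before aldolase, whereas Aldoa was the member with higher values. Of the other enzymes tested before aldolase, Adpgk and Pfkl also fell, while Hk3 was lower and Gpi1 and Pfkm higher without passing. Gpi1 and Pfkm, chosen after their values were seen, had log2 fold changes of 0.21 and 0.21 (limma adjusted p = 0.075 and 0.069). The longest coding transcripts of the 4 members that fell span 3260 to 5513 bases. That of Pdk1 has 5185 bases, and those of the other members 1420 to 2432. The part of transcript length in these calls was not tested. Fold changes here are on the log2(RPKM + 1) scale.

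**Figure D1:**
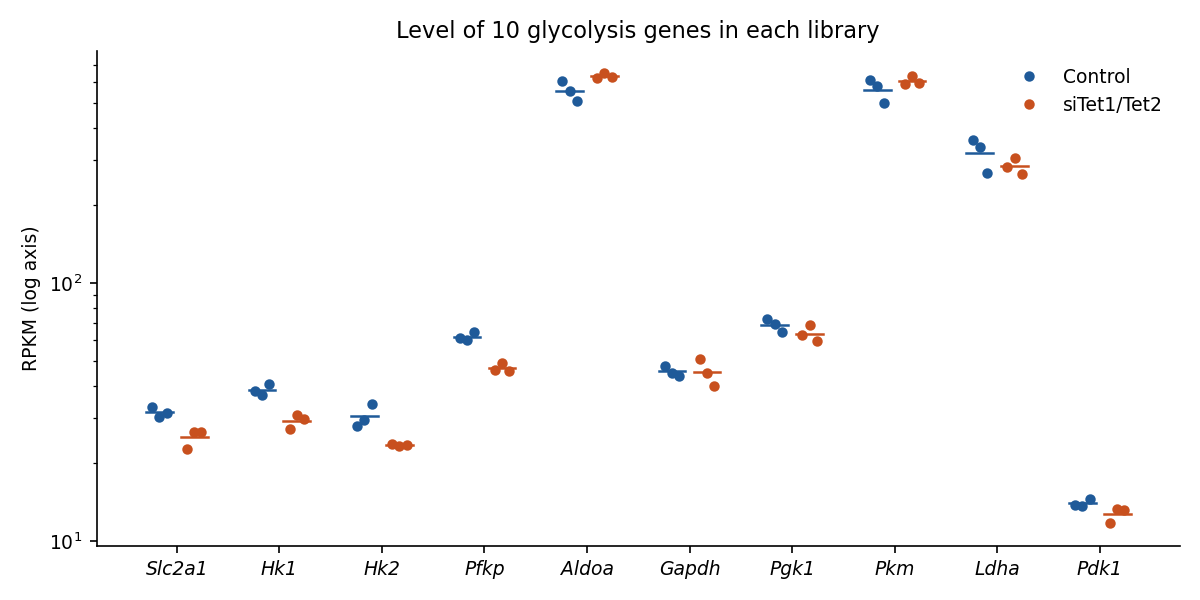
RPKM of each of the 10 genes (log axis) in pathway order, with 1 point for each library, blue for Control and orange for siTet1/Tet2, and a line at each group mean. The orange points lie below all blue points for Slc2a1, Hk1, Hk2, Pfkp and Pdk1 and above all of them for Aldoa, and the groups overlap for Gapdh, Pgk1, Pkm and Ldha.

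Per length, the members covered a range from 14.0 RPKM for Pdk1 to 563 RPKM for Pkm in Control cells. Pkm and Aldoa were the highest and did not differ from each other beyond their spread, and Ldha followed at 321 RPKM. Pgk1, at 68.9 RPKM, and Pfkp, at 61.8 RPKM, overlapped narrowly in their Control libraries. Gapdh came next at 45.5 RPKM, above every library of Hk1 at 38.5 RPKM, and Slc2a1 and Hk2 overlapped at 31.6 and 30.4 RPKM. In siTet1/Tet2 cells Aldoa stood above Pkm, at 635 against 608 RPKM, with ranges that overlapped, and Gapdh at 45.2 RPKM overlapped Pfkp at 46.8 RPKM. Thus Gapdh, often among the most abundant transcripts, was listed at a level 12.4 times below Pkm and 12.2 times below Aldoa in Control cells.

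The members differed in how much sequence they share with other genes. On the longest coding transcript of GENCODE M21, 82.5% of the 50-base windows of Gapdh also occur in another annotated gene, and 222 such genes were found. Only 3 of them were in the deposited table, with a summed mean of 6.37 RPKM. Pgk1 shared 68.0% of its windows with 5 genes and Pkm 34.4% with 8. Pfkp shared 17.1%, with Pitrm1 alone, a neighbour read from the opposite strand at a mean of 34.6 RPKM, and reads there cannot be told apart unless strand was used. Ldha shared 16.6% and Aldoa 13.5%, while Slc2a1, Hk1, Hk2 and Pdk1 shared between 0% and 2.6%. With 100-base windows the share was still 78.0% for Gapdh and 67.0% for Pgk1 but 9.8% for Pkm and 1.3% for Ldha. How the authors counted reads that match several genes was not given, so the levels of Gapdh and Pgk1 are uncertain, and the part of shared sequence in them was not tested.

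**Figure D2:**
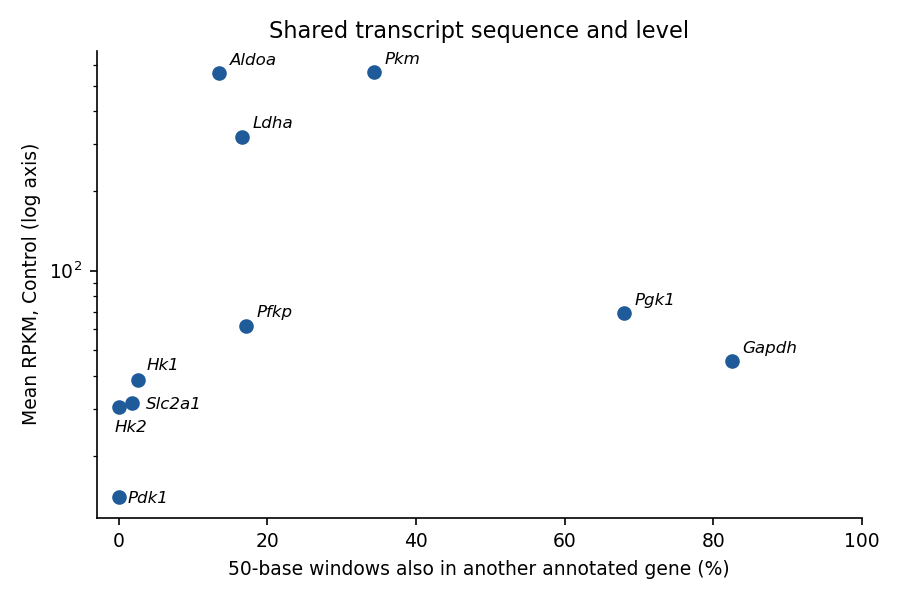
Mean Control RPKM of each member (log axis) against the percentage of its 50-base transcript windows that also occur in another annotated gene. Gapdh and Pgk1 stand apart on the right at 82.5% and 68.0%, and Pkm, Aldoa and Ldha are the most abundant.

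Glucose uptake was represented by Slc2a1, the main carrier of basal uptake (chromosome 4, 119108711 to 119137983, GRCm38). It was at 33.1, 30.2 and 31.5 RPKM in Control and at 22.8, 26.5 and 26.4 RPKM in siTet1/Tet2. Every siTet1/Tet2 library was below every Control library, and siTet1/Tet2 replicate 1 was the lowest. The mean fell to 79.9% of Control, with a log2 fold change of -0.32 (SE 0.08, limma adjusted p = 0.011). The call was lost when libraries were scaled by median ratio (limma adjusted p = 0.062), by quantiles (0.051), to Actb (0.30) or to Gapdh (0.12), and with all 36870 genes tested (0.081).

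Both hexokinases among the members fell. Hk1, the housekeeping form bound to mitochondria (chromosome 10, 62268855 to 62379908), was at 38.2, 36.7 and 40.5 RPKM in Control and at 27.3, 30.7 and 29.6 RPKM in siTet1/Tet2. Its mean fell to 75.9% of Control, without overlap, and the log2 fold change was -0.39 (SE 0.07, limma adjusted p = 0.0023). Hk2, the inducible form (chromosome 6, 82725025 to 82774454), was at 28.0, 29.3 and 34.0 RPKM against 23.8, 23.4 and 23.5 RPKM. The siTet1/Tet2 values of Hk2 had a CV of 0.84%, whereas Control replicate 3 stood above the other Control libraries. Its log2 fold change was -0.35 (SE 0.08, limma adjusted p = 0.0077), which did not pass with quantiles (0.054), relative to Actb (0.30) or Gapdh (0.081), or with all genes tested (0.070). Hk3, a form abundant in myeloid cells, is not one of the 10 genes and was chosen after its values were seen. It was more abundant than either. It was at 175 ± 2.94 RPKM in Control, 2.54 times the sum of Hk1 and Hk2, and at 157 ± 5.46 RPKM in siTet1/Tet2 (SD, n = 3; log2 fold change -0.15, limma adjusted p = 0.062).

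Pfkp, the platelet form of the enzyme that commits sugar to glycolysis (chromosome 13, 6579768 to 6648777), fell the most among the members, by a small margin over Hk1. Without Control replicate 2 or without siTet1/Tet2 replicate 3, Hk1 fell slightly more. Pfkp was at 61.0, 59.9 and 64.5 RPKM in Control and at 45.9, 48.9 and 45.5 RPKM in siTet1/Tet2. Both groups were tight, with CVs of 3.9% and 4.0%, and they did not overlap. The mean fell to 75.6% of Control, with a log2 fold change of -0.40 (SE 0.06, limma adjusted p = 0.00099). For both Hk1 and Pfkp the call was lost only relative to Actb (limma adjusted p = 0.10 and 0.067), whose own log2 fold change was -0.22.

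Aldoa, which splits fructose bisphosphate (chromosome 7, 126795234 to 126800751), went the other way. It was at 607, 555 and 506 RPKM in Control and at 624, 651 and 630 RPKM in siTet1/Tet2, so that the groups did not overlap. The log2 fold change of 0.19 did not pass (SE 0.09, 95% interval -0.01 to 0.39, limma adjusted p = 0.10). It passed with median ratio scaling (0.32, adjusted p = 0.033), with quantiles (0.15, adjusted p = 0.048), relative to Actb (0.42, adjusted p = 0.00098) and without Control replicate 1 (0.26, adjusted p = 0.045).

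Gapdh catalyses the first oxidation of the pathway and is the reference transcript of the mRNA qPCR in this study (chromosome 6, 125161715 to 125166467). Its mean was nearly the same in both groups. The Control libraries gave 47.8, 44.8 and 43.7 RPKM and the siTet1/Tet2 libraries 50.9, 44.8 and 40.0 RPKM. The siTet1/Tet2 libraries held both the highest and the lowest value, 1.27-fold apart, and the Control libraries were 1.09-fold apart. The means were 45.5 ± 2.13 and 45.2 ± 5.46 RPKM (SD, n = 3), a log2 fold change of -0.01 (SE 0.09, limma adjusted p = 0.92). The 95% interval ran from -0.22 to 0.19, or a ratio of 0.86 to 1.14, so differences within that range were not excluded with 3 libraries a group. Relative to the median gene the difference was 0.07 on the log2 scale. It changed sign with median ratio scaling (0.11), with quantiles (0.09) and relative to Actb (0.21), and without Control replicate 1 (0.02) or siTet1/Tet2 replicate 3 (0.07), and did not pass the test in any of 18 alternatives.

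Gapdh was not among the steadier genes across replicates. Its within-group SD was 0.129 on the log2 scale, and 67.4% of the 6240 genes averaging 10 RPKM or more had a lower one, their median being 0.098. Its CV was 4.7% in Control, where the median gene had 7.5%, and 12.1% in siTet1/Tet2, where the median gene had 5.3%. By the SD pooled over both groups, 8 of the other 9 members varied less, all but Ldha. Among 14 other common reference genes 8 varied less by that measure, among them Actb, Hprt and Tbp. In Control alone, of the other members only Slc2a1, Pfkp and Pdk1 had a lower CV than Gapdh. There the CV was 4.8% for Actb, 4.8% for Hprt and 2.6% for Tbp. Hprt, a purine salvage enzyme, was at 172 ± 8.31 against 170 ± 7.50 RPKM, and Tbp, the TATA-binding protein, at 8.82 ± 0.232 against 8.60 ± 0.341 RPKM (SD, n = 3), with limma adjusted p of 0.84 and 0.73, and Hprt passed relative to Actb alone (0.20, adjusted p = 0.027). Ywhaz, an adaptor protein chosen after its values were seen, was at 82.2 ± 0.566 against 82.1 ± 1.07 RPKM.

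Some reference genes moved far more than Gapdh. Of the 14, 3 rose and 1 fell, against 14.7% and 29.8% of all genes tested. B2m, the light chain of class I MHC, fell from 2986 ± 231 to 858 ± 31.9 RPKM (log2 fold change -1.80, limma adjusted p = 9.4e-06). Gusb, a lysosomal glucuronidase, rose from 209 ± 2.64 to 359 ± 13.4 RPKM (0.78, adjusted p = 4.1e-05) and Tfrc, the transferrin receptor, from 82.9 ± 3.14 to 133 ± 7.90 RPKM (0.67, adjusted p = 0.00010). Actb, cytoskeletal actin, was at 3340 ± 159 against 2859 ± 46.3 RPKM, without overlap (-0.22, adjusted p = 0.16), and passed in 5 of 18 alternatives. These were libraries rescaled to the same sum (-0.29, adjusted p = 0.0068), quantiles (-0.57, 0.024), no variance trend (0.028), gene-wise variance (0.024) and the fit without Control replicate 3 (0.039). Ppia, a cyclophilin, was at 255 ± 58.9 against 258 ± 29.4 RPKM, with Control replicate 3 at 189 RPKM. Divided by Gapdh, the members lower in siTet1/Tet2 numbered 2 at an adjusted p under 0.05, Hk1 and Pfkp, and divided by Actb there were 0 lower and 2 higher, Aldoa and Pkm.

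**Figure D3:**
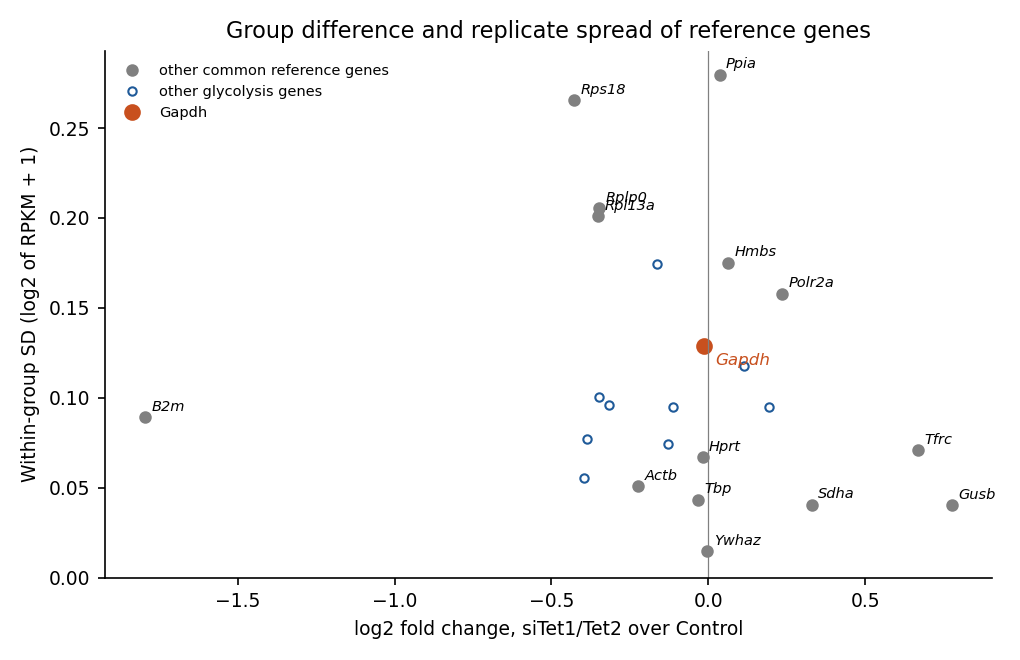
Within-group SD of log2(RPKM + 1) against the log2 fold change of siTet1/Tet2 over Control, with 1 point per gene: Gapdh (orange), 14 other common reference genes (grey) and the other 9 members (open blue). Gapdh lies close to 0 on the horizontal axis but above 8 of the grey points and 8 of the blue ones in spread, and B2m lies far to the left at -1.80.

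The genes whose pattern over the 6 libraries was most like that of Gapdh, among 6239 others averaging 10 RPKM or more, were Mrpl44 (Pearson r = 0.92), a mitochondrial ribosomal protein, Slc15a3 (0.89), a lysosomal peptide carrier, and Dhps (0.89), an enzyme of hypusine synthesis. These r values describe 6 points that share their libraries and depth, and 1 gene was above 0.9.

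Of the members in the lower steps, Pgk1 and Pkm, like Gapdh, did not pass the test. Pgk1, which makes the first ATP of the pathway (chromosome X, 106187100 to 106203699), was at 72.7, 69.6 and 64.5 RPKM against 63.1, 68.6 and 59.4 RPKM. Its groups overlapped, with a log2 fold change of -0.11 (95% interval -0.28 to 0.06, limma adjusted p = 0.25), and it passed only when libraries were rescaled to the same sum (-0.18, adjusted p = 0.045). Pkm, which makes the last ATP (chromosome 9, 59656368 to 59679375), was at 613, 578 and 497 RPKM against 591, 638 and 594 RPKM. The log2 fold change of Pkm was 0.12 (95% interval -0.10 to 0.33, limma adjusted p = 0.36).

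Ldha, which regenerates NAD+ by reducing pyruvate (chromosome 7, 46841475 to 46855627), varied the most between replicates among the members. It was at 357, 338 and 266 RPKM in Control and at 283, 306 and 265 RPKM in siTet1/Tet2. Control replicate 3 was at 0.77 of the mean of the other Control libraries and lay within the siTet1/Tet2 range. The log2 fold change was -0.16 (SE 0.12, 95% interval -0.43 to 0.10, limma adjusted p = 0.28), and without Control replicate 3 it was -0.29 (adjusted p = 0.011). The same library was at 0.83 of the other Control libraries for Pkm and 0.87 for Aldoa, and at 1.19 for Hk2. Over all genes, its log2 ratio to the other Control libraries had a median of -0.13 in the third with the shortest transcripts and 0.15 in the third with the longest. Without it the members numbered 5 lower and 0 higher, and Slc2a1, Hk1, Hk2 and Pfkp kept their calls.

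Pdk1, the kinase that switches off pyruvate dehydrogenase (chromosome 2, 71873224 to 71903858), was at 13.7, 13.7 and 14.5 RPKM against 11.7, 13.3 and 13.2 RPKM. The groups did not overlap, but the log2 fold change of -0.13 did not pass (95% interval -0.30 to 0.05, limma adjusted p = 0.20). It did not pass in any of 19 alternatives.

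**Figure D4:**
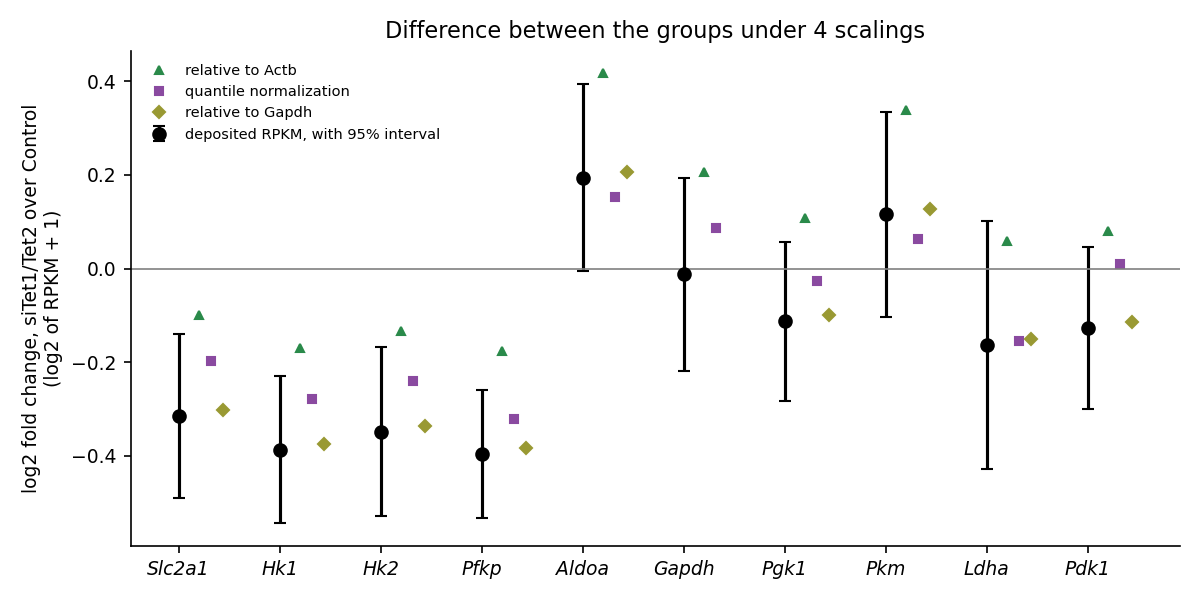
Log2 fold change of each member, siTet1/Tet2 over Control, from deposited RPKM with its 95% interval (black) and after quantile normalization, relative to Actb and relative to Gapdh (coloured symbols, placed to the right). The intervals of Slc2a1, Hk1, Hk2 and Pfkp lie below 0 and the other 6 include it, and the values relative to Actb are shifted upward for all members.

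The calls on several members changed with the scaling of the libraries. Over all genes tested, the log2 fold change had a median of -0.09 in deposited RPKM, 0.01 with median ratio scaling, 0.05 with quantiles and 0.08 relative to Actb. Calls over all genes split into 1953 higher and 3952 lower in deposited RPKM, 2886 and 2931 with median ratio scaling, 3589 and 2640 with quantiles, and 3772 and 2262 relative to Actb. Slc2a1, Hk1, Hk2 and Pfkp stayed lower, and Aldoa and Pkm higher, in all 19 alternatives. Relative to the median gene the fall was -0.23 for Slc2a1, -0.30 for Hk1, -0.26 for Hk2 and -0.31 for Pfkp on the log2 scale.

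Shares between isozymes were taken within a library of deposited RPKM, so a factor common to a library leaves them as they are. Quantile normalization is not such a factor, and shares were not recomputed after it. For such shares 3 libraries against 3 cannot give an exact two-sided permutation p under 0.1, so none of the 23 shares compared could pass. Among the SLC2A carriers, Slc2a1 went from 59.1% ± 0.45 of their summed RPKM to 49.9% ± 3.43 (SD, n = 3), without overlap, and Slc2a8 from 17.8% ± 1.15 to 28.2% ± 1.93. Hk1 held 15.8% ± 0.45 of hexokinase in Control and 13.9% ± 0.80 in siTet1/Tet2, and Hk2 12.5% ± 1.11 and 11.3% ± 0.35. Hk3 held 71.7% ± 1.49 and 74.8% ± 0.85, without overlap.

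The share of Pfkp was about level while its step as a whole was lower. Pfkp held 52.4% ± 0.42 of phosphofructokinase in Control and 51.7% ± 0.75 in siTet1/Tet2 (SD, n = 3), and the step summed to 118 ± 3.92 and 90.5 ± 3.70 RPKM. Aldoa held over 98% of aldolase in every library. Ldha held 98.4% ± 0.20 of lactate dehydrogenase in Control and 95.7% ± 0.75 in siTet1/Tet2, and Ldhb, the heart form, 1.60% ± 0.19 and 4.29% ± 0.75, without overlap. Pdk1 held 28.6% ± 1.11 of the pyruvate dehydrogenase kinases in Control and 38.6% ± 2.13 in siTet1/Tet2, while its own level was not higher. Pdk4 went from 42.6% ± 1.94 to 16.9% ± 5.33 and the sum from 49.1 ± 3.64 to 33.1 ± 2.97 RPKM.

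**Figure D5:**
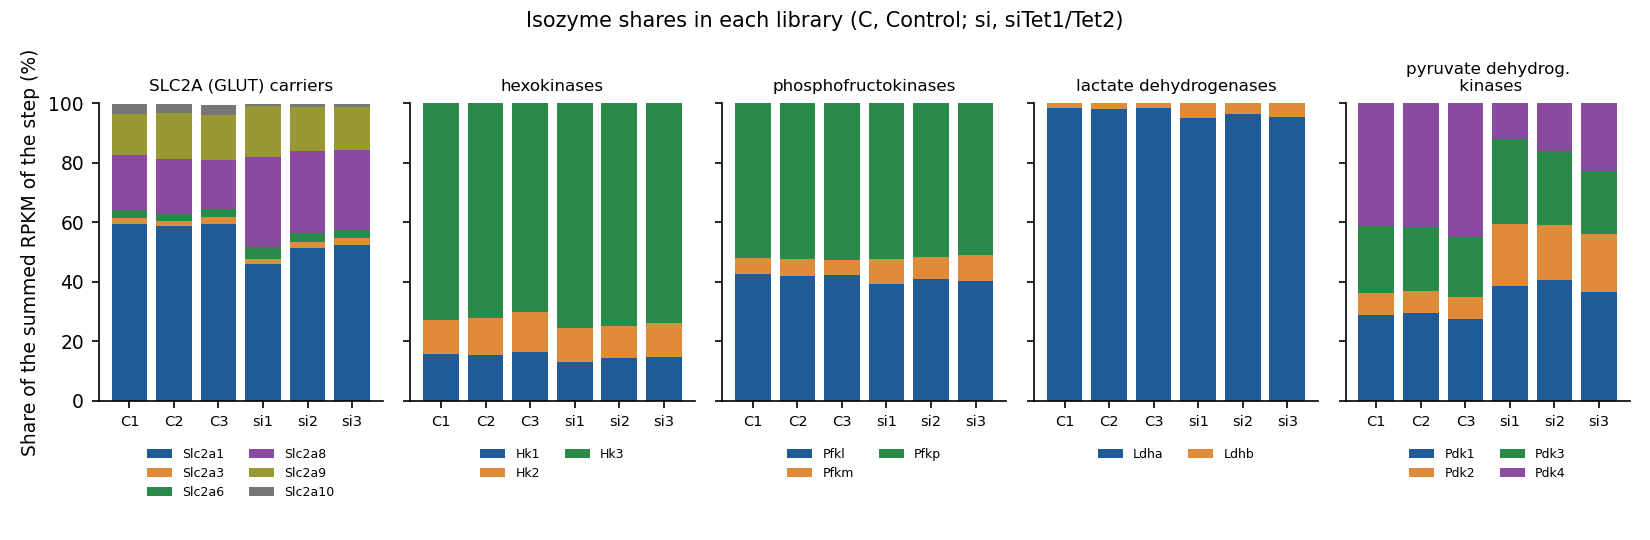
Share of each isozyme in the summed RPKM of its step (%), with 1 stacked bar per library (C, Control; si, siTet1/Tet2). Hk3 is the largest hexokinase part in all 6 libraries, Pdk4 averages 42.6% in Control and 16.9% in siTet1/Tet2, and Ldha is above 95% throughout.

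The other enzymes of the route gave both directions. Of 21, 15 passed the minimum, and of these 4 rose and 2 fell, against 14.7% and 29.8% of all genes tested. The same shares of all genes stand beside the counts of the lists below. Adpgk, an ADP-dependent glucokinase, fell from 21.8 ± 0.540 to 14.6 ± 1.27 RPKM (log2 fold change -0.55, limma adjusted p = 0.00068), and Pfkl, the liver phosphofructokinase, from 49.9 ± 1.84 to 36.3 ± 2.29 RPKM (-0.45, adjusted p = 0.00086). Ldhb rose from 5.25 ± 1.27 to 12.7 ± 1.88 RPKM (1.15, adjusted p = 0.00078) and Aldoc, the brain aldolase, from 4.78 ± 0.341 to 8.06 ± 0.370 RPKM (0.65, adjusted p = 0.00045).

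Of 13 other sugar and monocarboxylate carriers, 10 were tested, and 2 rose and 3 fell. Slc2a10, a carrier of the GLUT family, fell from 1.72 ± 0.108 to 0.412 ± 0.0505 RPKM (log2 fold change -0.95, limma adjusted p = 3.4e-05), and Slc16a1, a lactate carrier, from 7.60 ± 0.418 to 5.63 ± 0.321 RPKM (-0.37, adjusted p = 0.0071). Mpc1, part of the mitochondrial pyruvate carrier, rose from 19.6 ± 3.86 to 36.8 ± 6.19 RPKM (0.88, adjusted p = 0.0026), and Slc2a8 from 9.51 ± 0.777 to 14.3 ± 0.778 RPKM (0.54, adjusted p = 0.0011). Slc16a1 did not pass with quantiles (adjusted p = 0.058) or relative to Actb (0.17) or Gapdh (0.11), nor Mpc1 with all genes tested (0.076).

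Among 19 regulators of glycolytic flux and regulators or subunits of pyruvate dehydrogenase, 17 were tested, and 4 rose and 7 fell. Pdk4, the starvation-induced kinase, fell from 20.9 ± 2.52 to 5.70 ± 2.30 RPKM (log2 fold change -1.76, limma adjusted p = 0.00036), and Arrdc4, an arrestin-like inhibitor of glucose uptake, from 13.4 ± 1.33 to 5.16 ± 0.471 RPKM (-1.22, adjusted p = 4.4e-05). Pdk2, another such kinase, rose from 3.62 ± 0.321 to 6.48 ± 0.546 RPKM (0.70, adjusted p = 0.00061). Pdp1, the phosphatase that reactivates pyruvate dehydrogenase, rose from 5.13 ± 0.204 to 7.68 ± 0.501 RPKM (0.50, adjusted p = 0.0016). Txnip, arrestin-like as Arrdc4 is, was chosen after its values were seen. It rose from 66.5 ± 4.0 to 84.4 ± 3.3 RPKM (0.34, limma adjusted p = 0.0036).

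The pentose phosphate route branches off after hexokinase and makes NADPH and ribose. All 8 of its enzymes were tested, and 4 rose and 1 fell. Taldo1, transaldolase, rose from 298 ± 54.3 to 560 ± 23.2 RPKM (log2 fold change 0.92, limma adjusted p = 0.00072), and Pgd, which makes NADPH, from 247 ± 25.5 to 329 ± 9.67 RPKM (0.42, adjusted p = 0.0050, or 0.059 with all genes tested). Rpia, ribose phosphate isomerase, fell from 9.36 ± 0.497 to 7.58 ± 0.206 RPKM (-0.27, adjusted p = 0.020), a call held in 12 of 19 alternatives. It was lost under median ratio scaling (adjusted p = 0.13), with quantiles (0.29), relative to Actb (0.55) or Gapdh (0.27), and without Control replicate 1 (0.052), siTet1/Tet2 replicate 2 (0.067) or siTet1/Tet2 replicate 3 (0.054).

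Of 23 HIF factors, regulators and targets outside the 10 genes, 22 were tested, and 5 rose and 8 fell. Adm, adrenomedullin, fell from 33.7 ± 2.27 to 3.76 ± 0.886 RPKM (log2 fold change -2.88, limma adjusted p = 3.3e-06), and Ddit4, an inhibitor of mTORC1, from 20.8 ± 1.79 to 6.91 ± 1.31 RPKM (-1.47, adjusted p = 6.1e-05). Mxi1, a MYC antagonist, rose from 6.09 ± 0.899 to 15.5 ± 2.15 RPKM (1.22, adjusted p = 0.00015), and Bnip3l, a mitophagy receptor, from 19.3 ± 1.09 to 37.5 ± 3.51 RPKM (0.93, adjusted p = 6.6e-05). Hif1a itself and the angiogenic factor Vegfa were chosen after their values were seen. Hif1a was at 40.6, 43.5 and 49.9 RPKM against 22.9, 21.5 and 27.3 RPKM (-0.88, adjusted p = 0.00030), and Vegfa at 24.9, 26.0 and 33.0 RPKM against 9.54, 9.98 and 13.8 RPKM (-1.27, adjusted p = 0.00027). The median over the tested genes of this list was 0.02, with members on both sides.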

How the data were processed

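RNA-seq of 3 Control and 3 siTet1/Tet2 libraries of mouse BMMSCs was examined. The authors trimmed and mapped the reads to GRCm38, took gene abundance from DNASTAR Lasergene. The 1 table they deposited gives RPKM values, named FPKM in the methods. The annotation, strand setting and handling of reads with several matches are not given in the sources used here. The table also holds the authors' p-values, which were not used. No count test was run, since only 54.1% to 59.8% of low values came within 0.1 of whole reads at the best depth, which was chosen for its match.

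Where a symbol was listed more than once (37 symbols) its highest row by mean was used. Genes averaging 0.1 RPKM or more were tested with limma 3.58.1 in R 4.3.3 (lmFit, eBayes with trend, two-sided) on log2 of RPKM plus a pseudocount of 1, fitted on the whole table and adjusted by Benjamini-Hochberg over 13266 genes, and the code was tested on simulated data. This scale understates fold changes of low genes. Intervals are 95%. Levels, shares and sequences were handled in Python 3.11.15. Positions and shared windows are from GENCODE M21 on GRCm38, promoters from RefSeq, where all 10 members matched.

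The members and lists were chosen with earlier results of these data known. Named genes were the 10 members, Tet1, Tet2 and Tet3, up to 2 rising and 2 falling genes of each other list with the largest change, an adjusted p under 0.05 and no overlap, Actb, B2m, Hprt, Ppia and Tbp, and the 3 genes most correlated with Gapdh. Marker lists were given as counts and sums, with Lyz2 and the stromal markers near 0 named. A gene left out of the list of reference genes is not reported here. Replicate numbers are shared between groups. Same-numbered libraries deviated from their group means together, with r of 0.15 for number 1, 0.12 for number 2 and 0.46 for number 3, each above 0.1, and a fit with the number as a block was added as a paired analysis. This rests on the data alone. Control replicate 1 with siTet1/Tet2 replicate 2 gave 0.33, and Control replicate 2 with siTet1/Tet2 replicate 1 gave 0.20, both above the values for numbers 1 and 2.

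Tried as alternatives were a pseudocount of 0.1 or 0.01, no filter, a mean of at least 1 RPKM, 5 scalings, no variance trend, gene-wise variance, the replicate block, summed rows of one symbol and each library left out in turn.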

Additional observations from a re-analysis of the deposited data

How the results depend on the processing

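Of the 10 members, 0 were higher and 4 lower in deposited RPKM. The number higher was 1 with median ratio scaling, 1 with quantiles and 2 relative to Actb, and between 0 and 1 when 1 library was left out, where Aldoa passed without Control replicate 1. The number lower was 2 without a filter, where 36870 genes were tested, 2 with quantiles, 3 with median ratio scaling, 0 relative to Actb, 2 relative to Gapdh and 5 with libraries rescaled to the same sum. No member met the threshold of a 2-fold change in any alternative. The fit with the replicate block gave 4 lower and 0 higher members and changed no other call among them, with 2248 higher and 4468 lower genes over the table. The log2 fold change of Gapdh was 0.11 with median ratio scaling, 0.086 with quantiles and 0.21 relative to Actb, and ranged from -0.099 to 0.071 when 1 library was left out. Sign changes of members that did not pass were Pgk1 at 0.0085 (median ratio) and 0.11 (Actb), Ldha at 0.059 (Actb), and Pdk1 at 0.011 (quantiles) and 0.080 (Actb). Among reference genes, Hprt was at 0.10 (median ratio), 0.045 (quantiles) and 0.20 (Actb, adjusted p = 0.027), and between -0.058 and 0.019 when 1 library was left out. Tbp was at 0.077, 0.13 and 0.17 under the same 3 scalings. Ppia was at -0.027 with libraries rescaled to the same sum, and between -0.17 (without Control replicate 3) and 0.16 when 1 library was left out. With quantiles, 8 other enzymes and 4 carriers were higher in place of 4 and 2. The lower pentose phosphate enzymes were 0 with median ratio scaling and with quantiles in place of 1, and the lower reference genes were 4 with quantiles in place of 1. The cause of these changes was not tested. The alternatives for genes outside the 10 were added after the data were seen. With 3 libraries a group and no read counts, the precision rests on the spread between libraries and the variance shared across genes.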
